A study of Mus musculus with 8 samples.

Results

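The genes described here are 35 immediate early and heat shock response genes, which cells switch on quickly after a stimulus or stress. They were listed by symbol and taken from the 19938 genes that a probe set of the array names singly. Each of the 35 had exactly 1 such probe set. Of these, 34 reached the median of all probe sets on at least 2 of 8 arrays and were tested. Egr3 reached it on 1 array only and was not tested.

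Total RNA of mononuclear phagocytes sorted from mouse colon and spleen was hybridised to Affymetrix arrays, and 1 array was deposited for each of 8 labelled groups. All mice were C57BL/6 and Cx3cr1gfp/+, that is, heterozygous for a green fluorescent protein reporter in the fractalkine receptor gene, so the controls carry the same allele. The arrays fall into 3 populations: CX3CR1hi colonic cells (4 arrays), CX3CR1int colonic cells (2 arrays) and splenic Ly6Chi monocytes (2 arrays). At steady state the CX3CR1hi arrays were resident macrophages and monocyte-reconstituted resident macrophages, both labelled female, and F4/80hi cells, labelled male. The steady-state splenic monocytes were labelled female. Colitis was induced with dextran sodium sulphate (DSS), a polymer that injures the colonic epithelium, and cells were taken on day 4. The 4 colitis arrays were CX3CR1hi F4/80hi cells, CX3CR1int Ly6Chi cells, CX3CR1int Ly6Clo cells and splenic Ly6Chi monocytes, all labelled male. No steady-state CX3CR1int array was analysed here. The labels give neither the age of the mice nor how many were pooled, do not say how cells were reconstituted, and name no replicates. Different labelled groups of a population therefore stood in for replicates, and p-values measure the spread between those arrays.

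Immediate early genes are transcribed within minutes of a signal, without new protein synthesis. Mitogen-activated protein (MAP) kinases drive many of them through serum response factor at CArG boxes, and cyclic AMP response element binding protein drives others at its own element. Their products include the AP-1 subunits and other transcription factors, together with phosphatases and RNA-binding proteins that end the response. Heat shock genes are driven by heat shock factors, which bind repeats of short elements when proteins misfold. In macrophages both groups respond to microbial products, cytokines and tissue injury, and they are also known to respond to the dissociation of tissue into single cells.

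Promoters of members are shown to place these elements before the levels. Promoters of RefSeq (build GRCm38.p6), from 250 bases before to 50 after the gene start, were searched for 29 of the 35 members. They lay in 40 windows that partly overlap. Egr1, Egr3, Fosl1, Ier2, Myc and Rgs1 had no window here. The members' search left out the chromosome that carries Egr1, which the windows of all genes keep, so the sets were not built alike. Whether Egr1 holds any of these elements was therefore not examined. The CArG box, searched on both strands, was in 6 of the 40 windows (15.0%), those of Egr2, Dusp5 and Zfp36. Of 32851 windows of all genes, 1.63% held it. By gene, it was in 3 of 29 members. Overlapping Egr2 windows hold the same box, so the 15.0% counts that box more than once. The cyclic AMP response element, TGACGTCA on both strands, was in 10% of the members' windows, those of Btg2, Dusp1, Maff and Ppp1r15a, and in 1.79% of all windows. The following stretches of 150 bases end at the base before the gene start and are written 5′ to 3′ on the gene's strand. Capitals mark CArG boxes in Egr2 (chr10:67537719-67537868, plus strand), in Dusp5 (chr19:53528995-53529144, plus strand), where a pair of boxes adjoin, and in Zfp36 (chr7:28379229-28379378, minus strand). Capitals mark the cyclic AMP response element in Dusp1 (chr17:26508473-26508622, minus strand) and Maff (chr15:79347370-79347519, plus strand).
Egr2: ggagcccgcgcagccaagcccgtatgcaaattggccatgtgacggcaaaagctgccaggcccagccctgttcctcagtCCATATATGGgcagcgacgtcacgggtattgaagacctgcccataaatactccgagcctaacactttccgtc
Dusp5: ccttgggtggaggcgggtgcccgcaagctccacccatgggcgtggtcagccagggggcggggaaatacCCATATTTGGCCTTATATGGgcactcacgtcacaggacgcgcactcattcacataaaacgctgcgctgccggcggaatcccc
Zfp36: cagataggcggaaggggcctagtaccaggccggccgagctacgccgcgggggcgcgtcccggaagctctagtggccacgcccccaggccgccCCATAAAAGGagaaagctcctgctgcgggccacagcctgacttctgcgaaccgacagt
Dusp1: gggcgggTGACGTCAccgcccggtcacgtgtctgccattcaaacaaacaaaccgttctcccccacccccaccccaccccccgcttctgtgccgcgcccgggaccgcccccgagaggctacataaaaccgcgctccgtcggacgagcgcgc
Maff: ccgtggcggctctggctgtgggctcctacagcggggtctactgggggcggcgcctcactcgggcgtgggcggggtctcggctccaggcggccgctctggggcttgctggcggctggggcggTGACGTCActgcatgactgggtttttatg

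The other motifs were the AP-1 site, the TATA box and heat shock elements. The AP-1 site TGANTCA, on both strands, was in 2.5% of the members' windows, that of Csrnp1, and in 7.81% of all windows. The TATA box TATAAA, on the gene's strand, was in 10% against 8.32%, those of Fos, Gadd45b, Junb and Ppp1r15a. A pair of heat shock units, GAANNTTC or TTCNNGAA on either strand, was in 15.0% of the members' windows, those of Egr2, Fosl2, Hspa1a, Hsph1 and Jun, and in 15.1% of all windows. A run of 3 units, GAANNTTCNNGAA or TTCNNGAANNTTC, which contains such pairs, was in 5.0% against 0.603%, in the 2 overlapping windows of Hsph1. It lies just after the start of Hsph1 (chr5:149636288-149636300, minus strand), with all its bases in capitals.
Hsph1: TTCTGGAAAGTTC
These matches describe the printed letters and not binding.

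Array medians lay between 5.77 and 5.87 on the deposited log2 scale. The labelled populations were checked against markers. Of 7 measured monocyte markers, 7 were lower in colonic than in splenic arrays. Of 10 colonic macrophage markers, 5 were higher in colon than in spleen, 1, Cx3cr1, was lower (-0.89, adjusted p = 0.02), and 9 were lower in CX3CR1int than in CX3CR1hi cells. Of 16 epithelial markers, 16 were higher in the colonic arrays. Their summed linear level was 504 to 1364 in spleen, 26760 to 27517 in CX3CR1int and 51497 to 76797 in CX3CR1hi arrays. No epithelial marker stayed below the median on every array. Summed plasma and B cell markers were 760 to 1301 in spleen and 2762 to 11317 in colon, stromal markers 405 to 410 and 1286 to 3842, endothelial markers 296 to 303 and 667 to 974. Neutrophil markers were 3911 to 4067 in spleen and 843 to 2821 in colon, T and NK cell markers 196 to 200 and 138 to 187, mast cell markers 121 to 124 and 187 to 1433, and pancreatic acinar markers 300 to 311 and 290 to 3767. The array labelled steady-state splenic monocytes, female, read 10.04 for Xist, the RNA of the inactive X chromosome, and also 10.28 for the Y-linked gene Eif2s3y. On the other arrays, one of the pair was at or above 9.78 and the other at or below 4.78, as labelled. Where leaving out that splenic array ended a member's call or moved its fold by over 1.5 times, the value without it is given beside the result.

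Levels below are deposited log2 values in a fixed order: steady-state then colitis splenic monocytes; CX3CR1int Ly6Chi then Ly6Clo cells; and CX3CR1hi resident, reconstituted, steady-state F4/80hi and colitis F4/80hi cells. Changes are differences on the same scale, from limma fitted to all 8 arrays over 10673 genes, with the standard error (SE) and p adjusted by Benjamini-Hochberg over those genes. A change was called where the adjusted p was below 0.05. Fewer responding cells and less RNA per cell cannot be told apart in such samples.

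**Figure D1:**
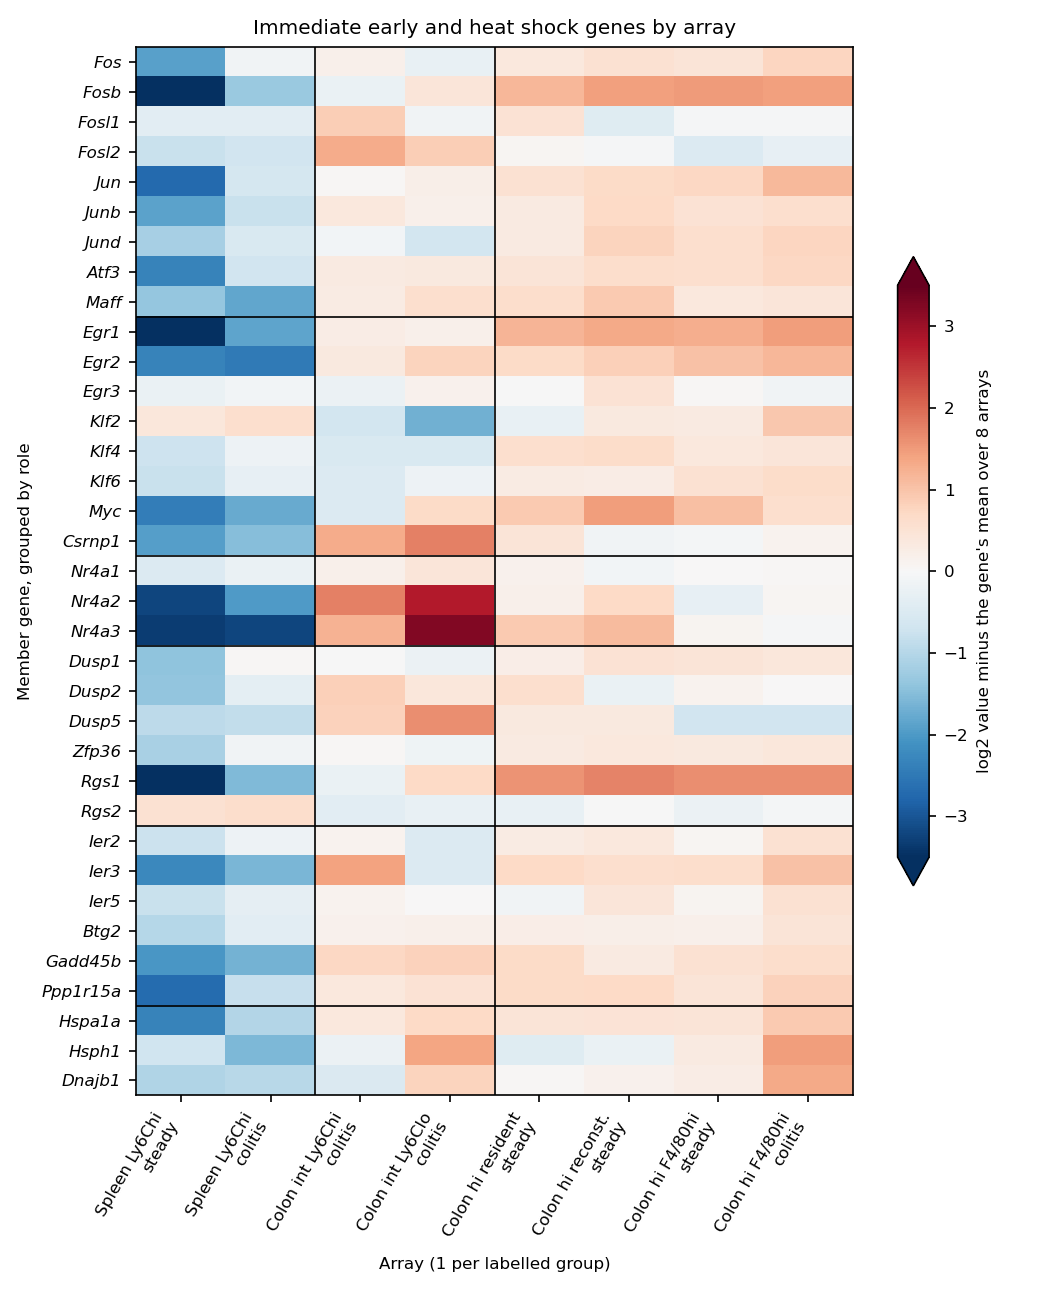
Deposited log2 values of the 35 members (rows, grouped by role) on the 8 arrays (columns), each minus the gene's mean over the arrays, with darker colours for larger distances. The steady-state splenic column is blue for most members and red for Klf2 and Rgs2; Nr4a2 and Nr4a3 are strongest in the CX3CR1int columns.

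Most of the genes were higher in colonic than in splenic cells. Of 34 tested members, 27 were called higher, where 18.4% of all genes were, and 1 was called lower, where 25.0% of all genes were. The median change was 1.49 over the 34 members and -0.10 over all genes. With no brightness filter, so that no member entered through its colonic level, 25 of 35 were called higher, where 9.63% of 19938 genes were. All 6 colonic arrays lay above both splenic arrays for 24 members, a pattern of 20.2% of genes, and both splenic arrays above all colonic arrays for 1 member, a pattern of 29.3%. By role, 8 of 9 AP-1 subunits, 5 of 7 zinc finger and other transcription factors, 3 of 3 NR4A receptors, 4 of 6 feedback regulators, 5 of 6 early response and growth arrest genes and 2 of 3 heat shock genes were higher. Of the other cell types' markers, 16 of 16 tested epithelial, 4 of 4 endothelial and 2 of 8 stromal genes were also called higher in colon. Of 5 tested plasma and B cell markers, Jchain and Igha were higher, Ms4a1 was lower and the median was -0.61. The part of these cells in the members' changes was not tested. Per the labels, cells were sorted from digested tissue. Both splenic arrays held Ly6Chi monocytes, and the CX3CR1hi and CX3CR1int cells came from colon alone. Organ, cell population and preparation therefore cannot be told apart.

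**Figure D2:**
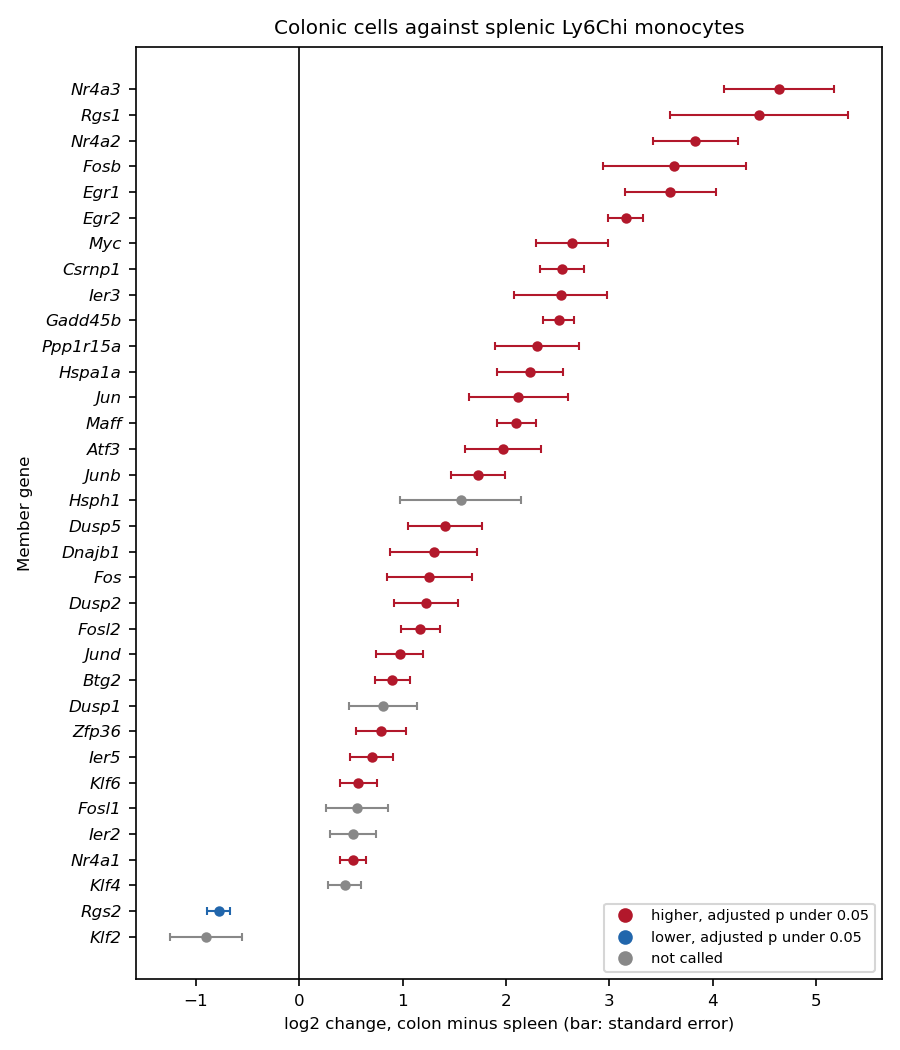
Change of each tested member between colonic and splenic cells on the log2 scale (points, limma; bars, standard error), ordered by size. The changes ran from -0.90 for Klf2 to 4.64 for Nr4a3, and the 27 red points and 1 blue point passed the threshold.

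The AP-1 subunits are basic leucine zipper proteins that pair to bind DNA. Fosb, a Fos family subunit, read 6.23 and 9.39 in spleen, 10.47 and 11.12 in CX3CR1int cells, and 11.86, 12.14, 12.18 and 12.14 in CX3CR1hi cells. The groups did not overlap, and the steady-state splenic array was far the lowest. The colonic level was 12.4-fold higher (log2 change 3.63, SE 0.69, adjusted p = 0.0049), and the change was 2.05 (SE 0.26, adjusted p = 0.0045) without the steady-state splenic array and 5.21 without the colitis one. Jun, the main partner of Fos proteins, read 8.58 and 10.70, then 11.36 and 11.51, then 11.84, 11.99, 12.04 and 12.45. Again no colonic array was as low as either splenic one, and Jun was 4.33-fold higher (2.12, SE 0.48, adjusted p = 0.0099). Without the steady-state splenic array its change was 1.05 (SE 0.24, adjusted p = 0.028), and without the colitis one 3.18. Atf3, a stress-induced member that can repress inflammatory genes, read 9.85 and 11.51, then 12.52 and 12.53, then 12.64, 12.80, 12.77 and 12.92, and rose by 1.97 (SE 0.37). Its change was 1.15 (SE 0.16, adjusted p = 0.0063) and 2.80 without the same arrays. Maff, a small Maf protein without a transactivation domain, read 5.84 and 5.37 in spleen, close to or below the array median, and between 7.49 and 8.10 in colon, and rose by 2.10 (SE 0.19, adjusted p = 0.0002).

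Fos itself overlapped between organs. It read 9.79 and 11.58 in spleen, 11.88 and 11.45 in CX3CR1int cells and 12.07, 12.22, 12.15 and 12.45 in CX3CR1hi cells, so the colitis splenic array lay above the Ly6Clo array. Its change of 1.26 (SE 0.41, adjusted p = 0.039) was called, and the call was lost in 6 of 8 refits that each left out 1 array. Without the steady-state splenic array the change was 0.37 (SE 0.22, adjusted p = 0.28), and without the colitis splenic array 2.15 (adjusted p = 0.0017). Junb (1.73), Fosl2 (1.17) and Jund (0.97) were also called higher; Jund lost its call without the steady-state splenic array (0.66, adjusted p = 0.13). Fosl1, whose splenic levels of 5.08 and 5.09 were below the array median, differed by 0.56 (SE 0.30, adjusted p = 0.17) and was not called.

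Of the zinc finger and other transcription factors, 5 of 7 tested were called higher. The early growth response factors Egr1 and Egr2 bind GC-rich promoters after growth factor signals. Egr2 read 6.20 and 6.07 in spleen, 8.89 and 9.32 in CX3CR1int cells and 9.23, 9.39, 9.58 and 9.72 in CX3CR1hi cells. The splenic levels were close to each other and far below every colonic array, and Egr2 was 8.94-fold higher in colon (3.16, SE 0.17, adjusted p = 3e-05). Egr1 read 6.70 and 8.70, then 10.79 and 10.70, then 11.72, 11.85, 11.81 and 12.00, with a wider splenic spread, and was 12.1-fold higher (3.59, SE 0.44, adjusted p = 0.0007). Without the steady-state splenic array its change was 2.60 (SE 0.17, adjusted p = 0.00057), and without the colitis splenic array 4.59. Egr3 stayed between 5.43 and 6.17 on all 8 arrays. Myc, a regulator of growth and metabolism, rose by 2.64 (SE 0.35), from 6.29 and 6.94 in spleen to between 8.23 and 10.16 in colon. Csrnp1, a nuclear transcriptional activator, rose by 2.54 (SE 0.21), from 7.04 and 7.48 to between 8.86 and 10.74.

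Of the Krüppel-like factors, only Klf6 was called. Klf6 rose by 0.57 (SE 0.18, adjusted p = 0.035), a call lost in 4 of 8 refits that each left out 1 array, among them the one without the steady-state splenic array (0.32, adjusted p = 0.32). Klf4, which supports monocyte differentiation, differed by 0.44 (SE 0.16, adjusted p = 0.058) and was not called. Klf2, a factor linked to quiescence and to restraint of inflammatory genes, read 9.03 and 9.23 in spleen, 8.01 and 6.96 in CX3CR1int cells and 8.40, 9.0, 8.95 and 9.59 in CX3CR1hi cells. Its CX3CR1int levels were below the splenic ones, whereas the colitis CX3CR1hi level was above them. The colonic difference was -0.90 (SE 0.35, adjusted p = 0.071) and was not called; it was called without the colitis CX3CR1hi array (-1.0, adjusted p = 0.04) and without the CX3CR1int Ly6Chi array (-1.16, adjusted p = 0.016).

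The NR4A proteins are orphan nuclear receptors whose activity follows their amount. Nr4a3 read 4.79 and 4.88 in spleen, below the array median, then 9.32 and 11.33 in CX3CR1int cells and 9.02, 9.22, 8.21 and 8.05 in CX3CR1hi cells. The measured change was 4.64 (SE 0.53, adjusted p = 0.00052). The values carry no detection calls, so whether the splenic level is above background is unknown, and no fold is given. Nr4a2 read 5.46 and 6.69, then 10.46 and 11.47, then 8.87, 9.37, 8.40 and 8.76, and was 14.2-fold higher (3.83, SE 0.41, adjusted p = 0.00038), with a change of 3.21 (SE 0.44, adjusted p = 0.0057) without the steady-state splenic array and 4.45 without the colitis one. Neither gene overlapped between organs. The steady-state splenic level of Nr4a2 was below the array median, so the size of its fold is uncertain. Nr4a1, which Ly6Clo monocytes need for their survival, was present throughout: it read 11.43 and 11.69 in spleen and 11.81 to 12.34 in colon. Its change was 0.52 (SE 0.13, adjusted p = 0.015) and lost its call without the steady-state splenic array (0.39, adjusted p = 0.16).

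The feedback regulators held both the widest splenic range and the member that went the other way. Rgs1, which speeds the shut-off of G protein signalling from chemokine receptors, read 5.78 and 9.73 in spleen, 11.04 and 11.96 in CX3CR1int cells and 12.85, 13.02, 12.89 and 12.91 in CX3CR1hi cells. The splenic arrays differed by 3.95 from each other, and yet both lay below every colonic array. Rgs1 was 21.9-fold higher in colon (4.45, SE 0.86, adjusted p = 0.0052). Its steady-state splenic level was below the array median, so the size of that fold is uncertain. Without the steady-state splenic array its change was 2.48 (SE 0.31, adjusted p = 0.0041), and without the colitis splenic array 6.43. Rgs2, of the same family, read 12.16 and 12.25 in spleen and 11.28 to 11.61 in colon, and fell by 0.78 (SE 0.11, adjusted p = 0.0014). The dual-specificity phosphatases inactivate MAP kinases. Dusp2 rose by 1.23 (SE 0.31) and Dusp5 by 1.41 (SE 0.36). Both lost their call without the steady-state splenic array (0.71 and 1.38, adjusted p = 0.16 and 0.11), and Dusp5 also without the colitis splenic array (1.44, adjusted p = 0.089). Dusp1 read 11.03 and 12.48 in spleen and 12.21 to 12.94 in colon; its difference of 0.81 (SE 0.33, adjusted p = 0.079) was called without the colitis splenic array (1.53, adjusted p = 0.0026), and was 0.09 (SE 0.18, adjusted p = 0.75) without the steady-state one. Zfp36, whose protein tristetraprolin destabilises cytokine mRNAs, rose by 0.79 (SE 0.24, adjusted p = 0.03), a call lost in 3 of 8 refits that each left out 1 array, among them the one without the steady-state splenic array (0.28, adjusted p = 0.24).

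Among early response and growth arrest genes, Gadd45b varied little within each organ. It encodes a stress-inducible activator of MAP kinase signalling and read 8.55 and 8.93 in spleen, 11.32 and 11.41 in CX3CR1int cells and 11.27, 10.91, 11.12 and 11.21 in CX3CR1hi cells. It was 5.68-fold higher in colon (2.51, SE 0.15, adjusted p = 3.9e-05), with no overlap. Ppp1r15a, a phosphatase subunit that restores translation after stress, read 6.92 and 8.78, then 9.97 and 10.10, then 10.28, 10.29, 10.04 and 10.42, and rose by 2.30 (SE 0.41). Its change was 1.37 (SE 0.19, adjusted p = 0.0056) without the steady-state splenic array and 3.22 without the colitis one. Ier3, a survival-related early response gene, read 4.82 and 5.48 in spleen, below the array median, and 6.60 to 8.50 in colon, and rose by 2.53 (SE 0.45); with splenic levels that low, no fold is given. Btg2, an antiproliferative gene, rose by 0.90 (SE 0.17) and Ier5 by 0.70 (SE 0.21), but without the steady-state splenic array their changes of 0.59 and 0.47 were not called (adjusted p = 0.053 and 0.25). Ier2 differed by 0.52 (SE 0.22, adjusted p = 0.094).

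The heat shock genes encode parts of the HSP70 chaperone machine. Hspa1a, the inducible chaperone itself, read 9.37 and 10.67 in spleen, 12.06 and 12.40 in CX3CR1int cells and 12.15, 12.17, 12.15 and 12.60 in CX3CR1hi cells. The organs did not overlap, and it was 4.68-fold higher in colon (2.23, SE 0.32, adjusted p = 0.0015). Without the steady-state splenic array its change was 1.58 (SE 0.23, adjusted p = 0.0072), and without the colitis splenic array 2.88. The near-identical gene Hspa1b shares another probe set with it, so the value may hold both. Dnajb1, the co-chaperone that stimulates its ATPase, read 8.51 and 8.58, then 9.04 and 10.33, then 9.59, 9.70, 9.81 and 10.89, and rose by 1.30 (SE 0.42, adjusted p = 0.04), a call lost in 5 of 8 refits that each left out 1 array, among them the one without the steady-state splenic array (1.26, adjusted p = 0.19). Hsph1, a nucleotide exchange factor of the same machine, read 9.42 and 8.57, then 9.92 and 11.50, then 9.70, 9.89, 10.45 and 11.59. All colonic levels were above both splenic ones, but they spread widely; the difference of 1.56 (SE 0.59, adjusted p = 0.064) was not called, and was called without the CX3CR1int Ly6Chi array (1.96, adjusted p = 0.021).

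The splenic arrays carried much of the uncertainty. Without the array labelled steady-state splenic, 17 of the 27 members were still called higher, where 9.16% of genes were, and the median over the members was 1.16. The 10 that lost their call were Btg2, Dnajb1, Dusp2, Dusp5, Fos, Ier5, Jund, Klf6, Nr4a1 and Zfp36. Without the colitis splenic array 27 were called, where 10.2% of genes were, and 25 of these were shared. Of the 28 calls, 18 held when each of the 8 arrays was left out in turn.

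Pairs of single arrays, compared without a test, set colonic against splenic cells separately at steady state and in colitis. Resident macrophages against steady-state splenic monocytes showed 27 of 34 members at least 2-fold higher, where 18.4% of genes were, and 0 at least 2-fold lower, where 10% were. The differences ran from -0.76 for Rgs2 to 7.07 for Rgs1, with a median of 1.97. Colonic CX3CR1int Ly6Chi cells against splenic Ly6Chi monocytes, both from colitis, showed 20 of 34 at least 2-fold higher, where 9.79% of genes were, and 1, Klf2 at -1.23, lower, where 3.95% were. The median was 1.17, and the measured differences were 4.44 for Nr4a3 and 3.77 for Nr4a2. Several members with a large difference at steady state were close between organs in colitis. Fos differed by 2.27 at steady state and 0.30 in colitis, Dusp1 by 1.62 and -0.07, and Zfp36 by 1.44 and 0.18. Egr2, Csrnp1, Ier3 and Gadd45b differed by similar amounts in both pairs, 3.03 and 2.82, 2.39 and 2.82, 2.94 and 3.03, and 2.72 and 2.38. The pairs differ in colonic population and sex label as well as in condition. The steady-state pair sets macrophages against monocytes, so its differences are not of organ alone.

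Within the colon, members were called between the populations in both directions, but no more often than other genes. Of 34 members, 4 were called higher in CX3CR1int than in CX3CR1hi cells, where 13.3% of genes were, and 4 were called lower, where 16.6% were, so the shares of members called were close to or below those of all genes. The median change was -0.26 over the members and 0.01 over all genes. The CX3CR1int arrays came from colitis only, whereas 3 of 4 CX3CR1hi arrays came from steady state. Epithelial markers were also lower in CX3CR1int cells for 8 of 16 genes, and their part in these changes was not tested.

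**Figure D3:**
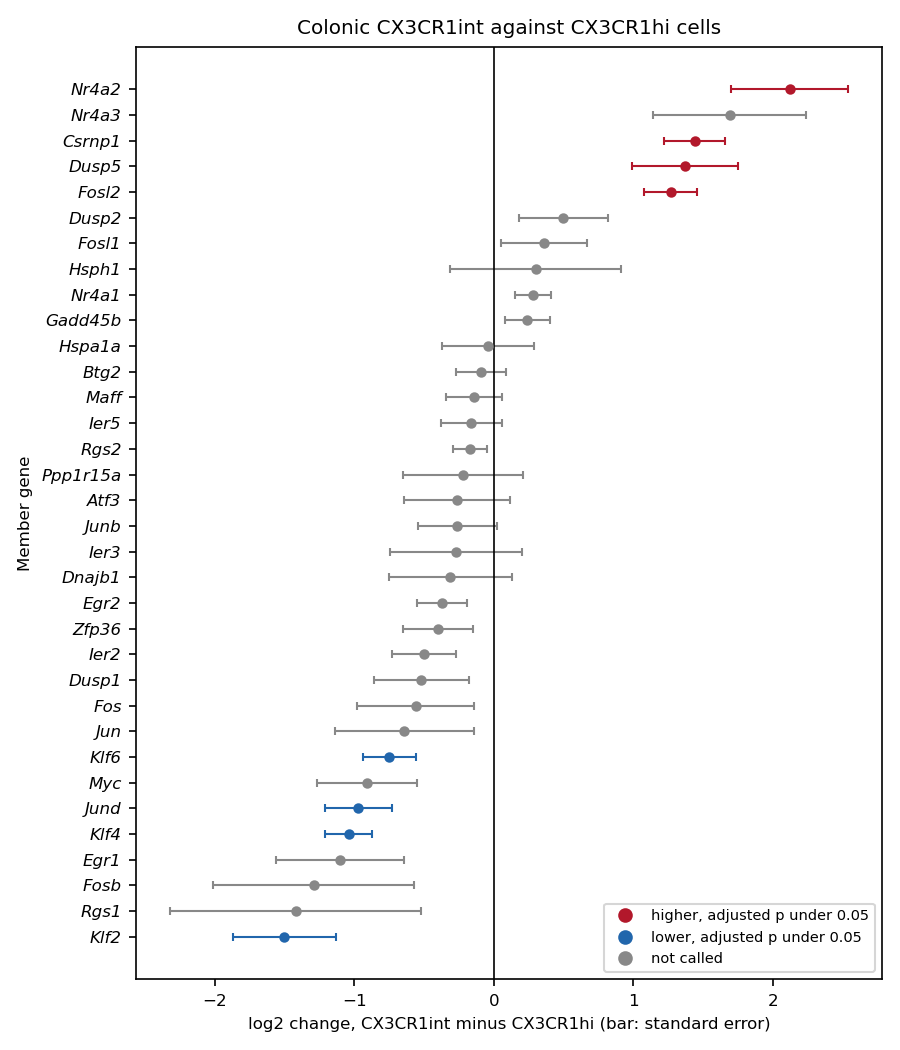
Change of each tested member between CX3CR1int and CX3CR1hi colonic cells on the log2 scale (points, limma; bars, standard error), ordered by size. The changes ran from -1.50 for Klf2 to 2.12 for Nr4a2; red points were called higher and blue points lower.

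Higher in CX3CR1int cells were Nr4a2 (2.12, SE 0.42, adjusted p = 0.01), Csrnp1 (1.44, SE 0.22, adjusted p = 0.0036), the phosphatase gene Dusp5 (1.37, SE 0.38, adjusted p = 0.03) and the AP-1 subunit gene Fosl2 (1.27, SE 0.19, adjusted p = 0.0037). For these 4 and for Nr4a1, Nr4a3 and Gadd45b, 7 members in all, both CX3CR1int arrays lay above all 4 CX3CR1hi arrays, a pattern of 23.6% of genes. Fosl2 read 11.41 and 10.96 in CX3CR1int cells against 10.16, 10.07, 9.62 and 9.82 in CX3CR1hi cells. Dusp5 read 9.32 and 10.15 against 8.87, 8.86, 7.86 and 7.86, so the F4/80hi arrays were the low ones. Those are labelled male and the other CX3CR1hi arrays female, so sort and sex label cannot be told apart here. Nr4a3 differed by 1.69 (SE 0.55, adjusted p = 0.053) and was not called, but was called without the CX3CR1int Ly6Chi array (2.70, adjusted p = 0.0049); without the Ly6Clo array it was 0.69 (adjusted p = 0.28). With condition as an added term, Nr4a2 and Dusp5 were no longer called (1.80 and 1.66, adjusted p = 0.088 and 0.08). The Dusp5 call was also lost in 5 of 8 refits that each left out 1 array.

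Lower in CX3CR1int cells were 3 Krüppel-like factors and Jund, a constitutive Jun subunit: Klf2 (-1.50, SE 0.37, adjusted p = 0.02), Klf4 (-1.04, SE 0.17, adjusted p = 0.0046), Jund (-0.97, SE 0.24, adjusted p = 0.02) and Klf6 (-0.75, SE 0.19, adjusted p = 0.021). Klf4 read 9.08 on both CX3CR1int arrays against 10.20, 10.25, 9.99 and 10.03. Without the Ly6Clo array Klf2 and Jund were not called (-0.97 and -0.69, adjusted p = 0.096 and 0.097), and without the CX3CR1int Ly6Chi array Klf6 was not (-0.61, adjusted p = 0.077). When the spread came from the colonic arrays alone, 8 members were called lower: Dusp1 (-0.52, adjusted p = 0.042), Egr1 (-1.10, adjusted p = 0.0036), Fosb (-1.29, adjusted p = 0.0097) and Rgs1 (-1.42, adjusted p = 0.012) joined, and Dusp5 lost its call (adjusted p = 0.053). The share of all genes called lower in that fit was 13.1%. The splenic arrays of these 4 lay far apart. Ier3 differed by -0.27 and was called lower without the CX3CR1int Ly6Chi array (-1.22, adjusted p = 0.015), where without the Ly6Clo array it was 0.69 (adjusted p = 0.1). All 4 CX3CR1hi arrays lay above both CX3CR1int arrays for 13 members, among them Fos, Jun and Atf3, a pattern of 25.3% of genes.

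The range over the 4 CX3CR1hi arrays had a median of 0.45 over the members and 0.38 over all genes, and was widest for Hsph1, at 1.89. Resident macrophages, labelled female, were compared with steady-state F4/80hi cells, labelled male, within this population. The pair showed 1 of 34 members at least 2-fold higher, Dusp5 at 1.01, where 3.36% of genes were. It showed 0 at least 2-fold lower, where 0.279% were. The CX3CR1int pair was compared in the same way. Ly6Clo against Ly6Chi cells showed 5 of 34 members at least 2-fold higher, where 6.46% of genes were: Nr4a3 (2.01), Hsph1 (1.58), Dnajb1 (1.29), Myc (1.14) and Nr4a2 (1.01). The members at least 2-fold lower were 2, Ier3 (-1.91) and Klf2 (-1.05), where 5.51% of genes were.

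**Figure D4:**
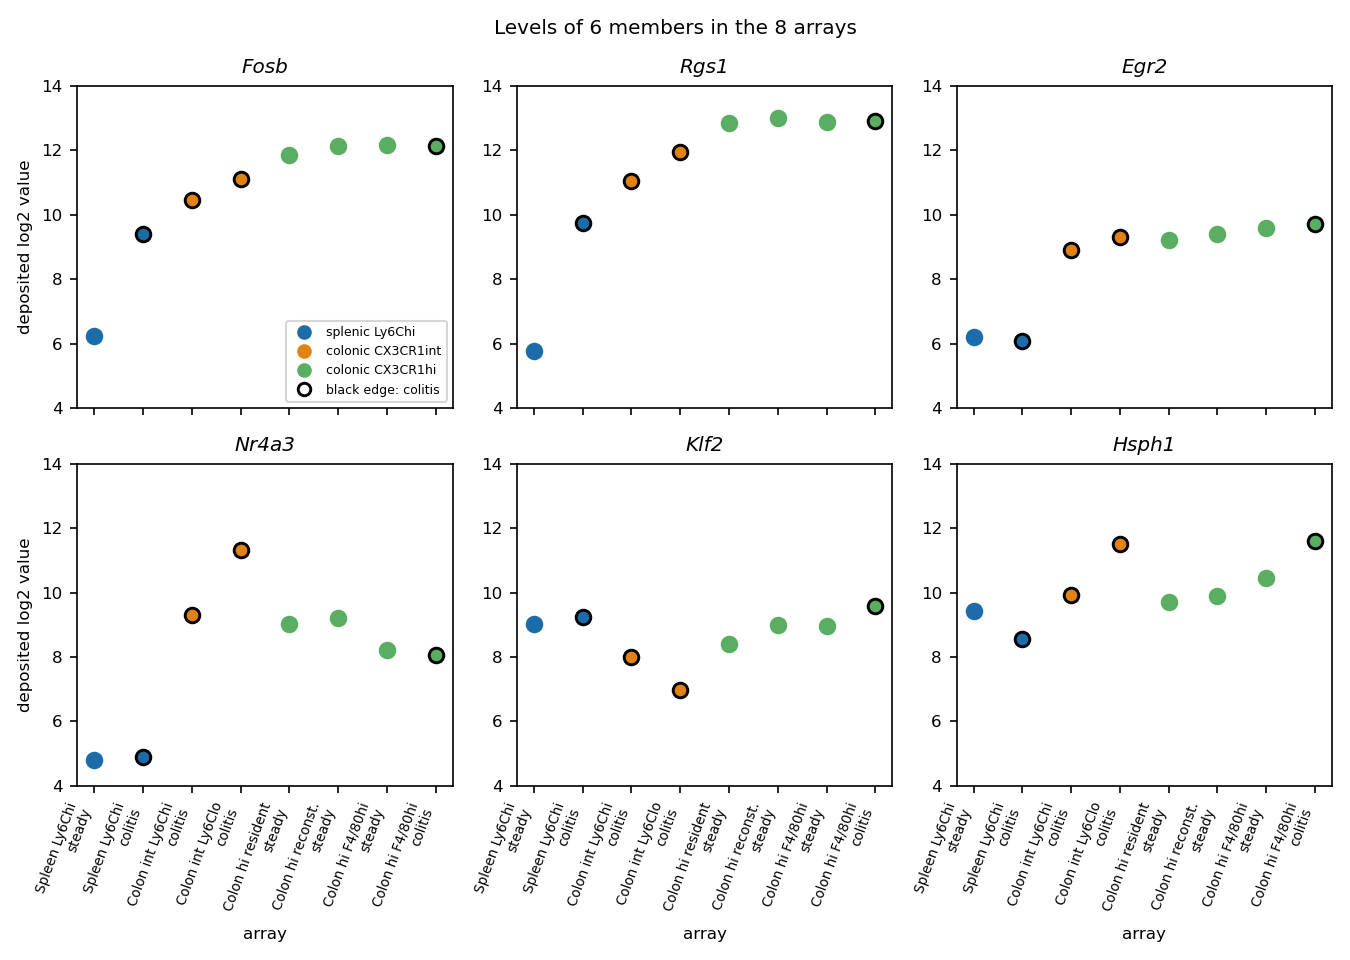
Deposited log2 levels of 6 members (panels) on the 8 arrays (points; colours mark populations and black edges colitis). Rgs1 and Fosb differ between the splenic arrays, 5.78 against 9.73 and 6.23 against 9.39, while Egr2 reads 6.20 and 6.07 there and Nr4a3 peaks at 11.33 in CX3CR1int Ly6Clo cells.

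Colitis against steady state gave no called member. The limma coefficient for colitis, adjusted for population, passed the threshold for 0 of 34 members and 0 of 10673 genes (0%) in either direction. At an unadjusted p under 0.05 there were 8 members, all of them higher in colitis, and 138 genes, of which 103 were higher. The 8 were Fos, Jun, Atf3, Egr1, Ier5, Btg2, Ppp1r15a and Hspa1a. The differences were 1.14 for Jun (SE 0.33, unadjusted p = 0.012) and 0.78 for Hspa1a (SE 0.21, unadjusted p = 0.0086), and the adjusted p was 1 after rounding for both. Without the steady-state splenic array the differences were 0.49 for Jun, 0.44 for Hspa1a, 0.21 for Egr1, 0.18 for Atf3, 0.30 for Fos, 0.22 for Ppp1r15a, 0.24 for Btg2 and 0.40 for Ier5, none of them called. The difference was above 0 for 28 of 34 members, with a median of 0.41 against 0.02 over all genes. That median was 0.11 when either splenic array was left out, so that only the CX3CR1hi arrays carried the comparison.

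In spleen the comparison rests on single arrays and has no test. Colitis splenic monocytes showed 13 of 31 members past the brightness filter at least 2-fold above the steady-state array, where 0.686% of genes were, and 0 at least 2-fold below it, where 0.0211% were. The median was 0.61 over the members and -0.01 over all genes. Rgs1 differed by 3.95 and Fosb by 3.16. Jun (2.12), Egr1 (2.00), Ppp1r15a (1.86), Fos (1.78), Atf3 (1.65), Dusp1 (1.44), Hspa1a (1.30), Nr4a2 (1.23), Junb (1.09), Dusp2 (1.04) and Zfp36 (1.01) were the others. They include AP-1 subunits, feedback regulators and a heat shock gene. Egr2 (-0.12), Maff (-0.46), Gadd45b (0.38) and Csrnp1 (0.43), which were higher in colon, were within 2-fold between the splenic arrays. Hsph1 differed by -0.86.

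The same pair differed in sex label, female at steady state and male in colitis, and the steady-state array is the one with both Xist and Y-linked RNA. The epithelial marker sum was 504 on the steady-state and 1364 on the colitis splenic array, and the plasma and B cell sum 760 and 1301. Colitis, sex label and these levels cannot be told apart in 2 arrays.

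Colonic F4/80hi cells, both arrays labelled male, differed less. Of 33 members past the filter, 2 were at least 2-fold higher in colitis, where 1.23% of genes were: Hsph1 at 1.14, from 10.45 to 11.59, and Dnajb1 at 1.08, from 9.81 to 10.89. None was at least 2-fold lower (0 members), where 0.243% of genes were. The median was 0.15 over the members and 0.10 over all genes. Rgs1 (0.01), Fosb (-0.04), Jun (0.41) and Egr1 (0.19), which stood apart in the splenic pair, were within 2-fold here.

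**Figure D5:**
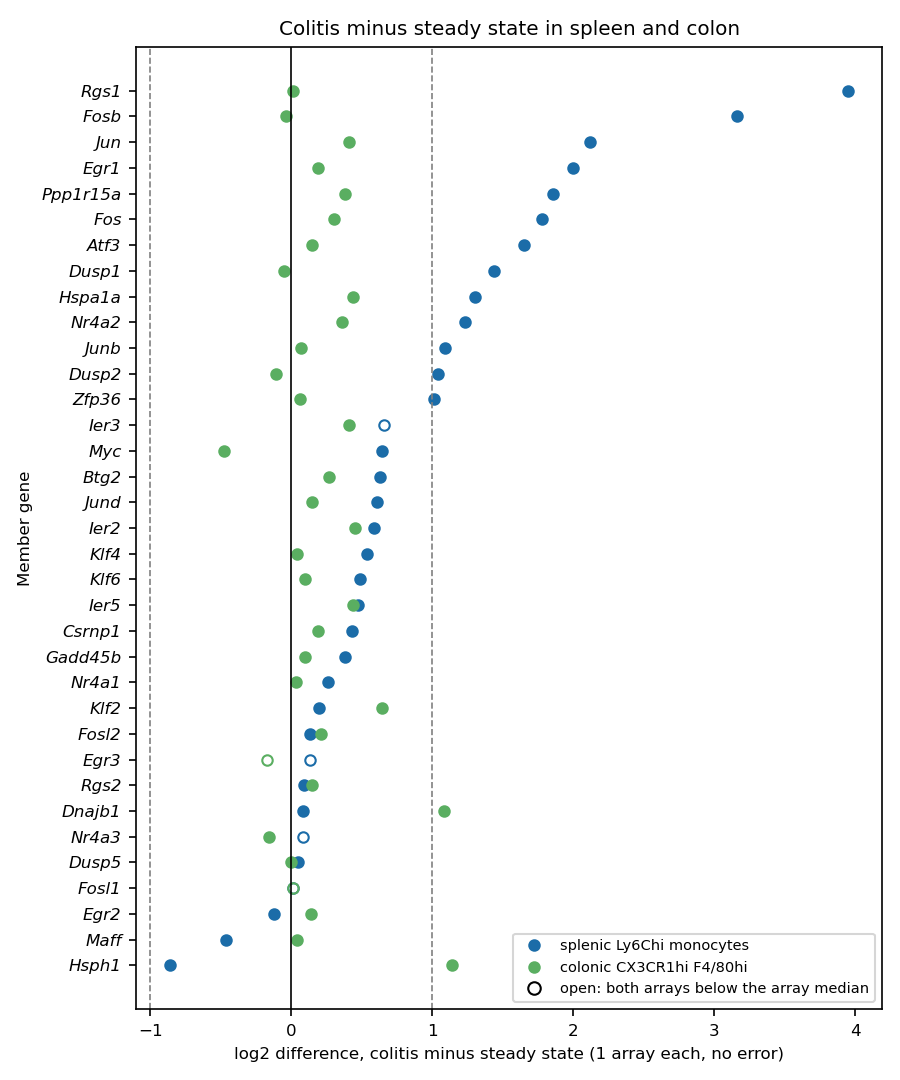
Colitis minus steady state on the log2 scale for each member in splenic Ly6Chi monocytes (blue) and colonic F4/80hi cells (green), 1 array each and hence without error bars; dashed lines mark 2-fold. Splenic differences reach 3.95 for Rgs1, while the largest colonic ones are 1.14 for Hsph1 and 1.08 for Dnajb1.

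The difference between organs was tested as an interaction, the colitis difference in spleen minus that in CX3CR1hi cells, with 3 residual degrees of freedom. Its splenic part is the pair above, whose arrays differ in sex label. The steady-state array of that pair held both Xist and Y-linked RNA. limma called 0 of 34 members and 0 of 10673 genes (0%). In this fit 3 of the 4 arms are 1 array each, so their spread is taken from the other groups, and the lone arrays are assumed to vary like those. Tested on simulated data, this fit found 0 of 100 genes shifted by 1 and 0 of 100 shifted by 2. The simulated noise was unlike that of the real arrays, so these figures do not carry over. With 3 of the 4 arms at 1 array each, the absence of calls says nothing of whether the organs differ. With a trended and robust prior 1 gene, which was no member, was called. At an unadjusted p under 0.05 there were 11 members, all with the larger difference in spleen, and 129 genes, of which 69 were higher in spleen. They were led by Rgs1 (3.96, SE 0.57, unadjusted p = 0.0006), Fosb (3.08, SE 0.48, unadjusted p = 0.00088) and Egr1 (1.79, SE 0.27, unadjusted p = 0.00079), each with an adjusted p of 1 after rounding. Hsph1 went the other way (-2.43, SE 0.99, unadjusted p = 0.053).

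Other genes of the response were read from lists. Of 30 other tested immediate early and early response genes, 16 were higher in colon and 2 lower, with a median of 0.81; of all genes 18.4% were higher and 25.0% lower. The largest changes were Ptgs2, the inducible cyclooxygenase (5.37, SE 0.82), Ccn1, a matrix protein (3.99, SE 0.43), Hbegf, a growth factor (3.38, SE 0.34), and Plk2, a kinase (3.33, SE 0.48). Ptgs2 read 5.03 and 8.78 in spleen and 11.48 to 12.69 in colon, so its splenic arrays also lay apart. Between colonic populations 2 of the 30 were higher in CX3CR1int cells and 5 lower, where 13.3% and 16.6% of all genes were, led by Rhob (-2.37), Hbegf (-1.78), Ccn1 (-1.47) and Dusp6 (-1.47).

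Of 21 measured kinases and transcription factors upstream of these genes, 1 was higher in colon and 4 lower, with a median of -0.10, as over all genes, and both shares were below the 18.4% and 25.0% of all genes. Crem, a cyclic AMP responsive factor that is itself inducible, was higher (1.65, SE 0.18). Creb1 (-0.62), the stress kinase gene Mapk14 (-0.61) and its target kinase gene Mapkapk2 (-0.55) were lower. In CX3CR1int against CX3CR1hi cells 5 of the 21 were higher and 1 lower, against 13.3% and 16.6% of all genes, with Crem at 1.10, Map2k3 at 0.96, Mrtfa at 0.85 and Mrtfb, a cofactor of serum response factor, at -1.17. RNA levels of kinases say nothing of their activity.

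Of 20 other tested heat shock and chaperone genes, 5 were higher in colon and 1 lower, with a median of 0.18, against 18.4% of all genes higher and 25.0% lower; the higher share is near that of all genes. The higher ones included the small heat shock gene Hspb1 (3.51, SE 0.45), Hsp90aa1 (1.26), the mitochondrial chaperonin gene Hspd1 (1.15) and Dnajb4 (0.97). Between colonic populations 1 was higher in CX3CR1int cells, Hsf2 (0.80), and 1 lower, Fkbp4 (-0.67), where 13.3% and 16.6% of all genes were. Of 14 tested genes of the unfolded protein and integrated stress responses, which slow translation and enlarge folding capacity, 10 were higher in colon and 0 lower, with a median of 0.78, where 18.4% and 25.0% of all genes were. They were led by Ddit3, a stress-induced transcription factor (1.95, SE 0.21), the endoplasmic reticulum genes Creld2 (1.78) and Pdia4 (1.15), and Asns, asparagine synthetase (1.58). In CX3CR1int against CX3CR1hi cells 3 of the 14 were higher and 2 lower, where 13.3% and 16.6% of all genes were, with Ero1b at 1.14, Sesn2 at 0.91, Ddit3 at -0.74 and Herpud1 at -0.60. None of these lists held a called gene in colitis against steady state or in the interaction (0 in each list).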

How the data were processed

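Total RNA was extracted with a column kit and labelled by the manufacturer's protocol, per the labels' protocols. The deposited values are on a log2 scale, made by the authors with RMA and Partek, per the submitters' processing notes. The sources used here give no version, settings or build. RMA corrects background, quantile normalizes and summarises probes, so levels are relative within an array set and one probe set's level cannot be set against another's. Values ran from 3.37 to 14.31. The number of arrays, 1 per labelled group, limits the precision.

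Of 35399 probe sets, 21789 carried 1 gene symbol in the platform annotation, 1621 several and 11989 none listed; Entrez identifiers of 21698 matched RefSeq, which changed 0 symbols. The brightest probe set by mean stood for each of 19938 genes. Groups came from the labels. The members and lists were chosen with earlier results of these data known. Every member is named; of each other list, counts and at most 4 called genes per contrast with the largest absolute change are named.

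Genes at or above the array median on at least 2 arrays (10673) were tested with limma 3.58.1 (lmFit, eBayes) in R 4.3.3 with Benjamini-Hochberg adjustment at 0.05. One fit had a coefficient per population (5 residual degrees of freedom); the colon contrast is the mean of both colonic populations minus the splenic one. Others had population and condition, or each combination. Single arrays were compared where the brighter was at or above its median, and a log2 difference of 1 counted as 2-fold. Other steps used Python 3.11.15.

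The fits were tested on simulated data with 200 changed genes among 10673: for colon against spleen the test found 70 of 100 genes shifted by 1 and 97 of 100 shifted by 2 on the log2 scale, with 13 false among 180 calls; for the interaction it found 0 of 100 and 0 of 100. Their noise was independent between genes and arrays, unlike that of the real arrays, so these figures do not carry over. Alternatives were other filters, probe set means, centred arrays, a repeated quantile normalization, a trended prior, the sex label or condition as terms, a 2-fold minimum, fewer arrays and other comparison arrays.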

Additional observations from a re-analysis of the deposited data

Results flagged for a closer look

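Among 70 groups of 4 or 6 colonic arrays, a single array stood apart in 4, a share close to the 1 in 20 that chance gives. The 4 CX3CR1hi arrays are among the 6 colonic ones, so Btg2 was counted in both. Hspa1a in the 4 CX3CR1hi arrays was highest in colitis F4/80hi cells, at 12.60, and the gap of 0.43 to the next array was 0.960 of the whole range. Btg2 was also highest there, at 12.24, with a gap of 0.22, which was 0.831 of the range over the 4 CX3CR1hi arrays and 0.788 of the range over all 6 colonic arrays. Fosb was lowest in resident macrophages, at 11.86, with a gap of 0.28, or 0.882 of the range over the 4 CX3CR1hi arrays. All 3 genes stayed within 2-fold across those arrays.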

How the results depend on the processing

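No paired analysis was possible because the labels give no replicate numbers. All 27 higher members in colon kept their direction under every alternative run, and 10 of them their call. Against a 2-fold minimum, 10 members were called higher and 0 lower in colon, and 0 and 0 in CX3CR1int against CX3CR1hi cells. Leaving out each array in turn gave 17 to 27 members higher and 1 to 2 lower in colon, and 3 to 8 lower in CX3CR1int cells. With condition as an added term 2 were higher in CX3CR1int cells, and with colonic arrays alone 8 were lower. Tissue as the single term gave 21 higher in colon. Of genes called between organs, 42.4% were higher; centring the arrays on their medians gave 37.8% and a repeated quantile normalization 49.2%. Centred arrays gave 2 members at least 2-fold lower in colonic than splenic Ly6Chi cells, 1 higher in colitis F4/80hi cells and 0 higher in resident against F4/80hi cells; quantile normalization gave 1 and 0 for the latter pairs. With the resident array as the comparison, 1 member was at least 2-fold lower in colitis F4/80hi cells, and with the reconstituted array 2. Dusp5 turned from 0.00 to -1.01 and -1.0 there. Those comparison arrays are labelled female and the colitis array male, and the cause was not tested. A filter at the 75th percentile gave 1 member lower in Ly6Clo than in Ly6Chi cells. No alternative called a member for colitis or the interaction. For the interaction, whose fit rests mostly on lone arrays, the absence of calls is no sign of stability. The interaction could not be fitted when the steady-state splenic, the colitis splenic or the colitis CX3CR1hi array was left out.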
